A study of Mus musculus with 3 samples.

Results

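The miR-15/16 family, with its relatives miR-195a and miR-497a, was represented in small RNA from testicular extracellular vesicles (EVs) by 8 of 805 miRNA identifiers. Members were chosen by a name rule: every mature or hairpin entry of miR-15a, miR-15b, miR-16, miR-195a or miR-497a, from either arm of the precursor. The rule was set with earlier results of these data known. The 5 identifiers of the 5′ arm (5p) were mmu-miR-16-5p, mmu-miR-15b-5p, mmu-miR-15a-5p, mmu-miR-195a-5p and mmu-miR-497a-5p, written below without the species prefix. The 3 identifiers of the 3′ arm (3p) were miR-15b-3p, miR-195a-3p and miR-16-2-3p. Of the 604 identifiers with a mature entry 7 were members, and of the 743 with a hairpin entry 8 were members. miR-15a-3p, miR-16-1-3p and miR-497a-3p, which the same rule would take, had 0 counts of either type in every library.

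EVs came from the decapsulated testes of C57/BL6 male mice at postnatal day 7 (PND7), and each of the 3 libraries held EVs pooled from 10 mice. Proteinase K, its inhibitor PMSF and RNase A were applied to the intact EVs, a digestion meant to leave only enclosed RNA for the libraries. All 3 libraries belonged to the same group, with no comparison group. Their titles carry the word treated, whereas their source is given as vesicles isolated from testis. The whole testis was digested, so the EVs could come from any of its cell types, and fewer EVs of a cell type cannot be told apart from less miRNA in each EV. The libraries held between 25716952 and 27939308 clean reads. Between 870967 and 1005836 of these were counted on mature miRNA entries and between 493345 and 612122 on hairpin entries, a type of entry that the sources used here do not define.

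miRNAs guide Argonaute proteins to mRNAs, and they choose their targets mainly by the seed, bases 2 to 8 from the 5′ end. Members of the miR-15/16 family share a seed and are known for holding back the cell cycle, with cyclins D1 and E1 and the survival factor Bcl2 among their established targets. They are encoded in clusters of neighbouring precursors. The Dleu2 gene carries miR-15a and miR-16-1, a locus known for its loss in leukaemia. The Smc4 gene, which encodes a condensin subunit, carries miR-15b and miR-16-2. miR-497a and miR-195a form a further cluster, known for its part in cell cycle exit of the postnatal heart.

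The 5p sequences (RefSeq, GRCm38.p6) are shown because the bases they share and the bases in which they differ decide what the counts can tell apart. The seed is in capitals, and every sequence runs 5′ to 3′.
miR-16-5p: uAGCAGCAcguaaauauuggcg
miR-195a-5p: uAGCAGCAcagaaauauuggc
miR-15a-5p: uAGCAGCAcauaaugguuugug
miR-15b-5p: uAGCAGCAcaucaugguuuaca
miR-497a-5p: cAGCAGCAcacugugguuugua
miR-322-5p: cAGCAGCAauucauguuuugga
miR-503-5p: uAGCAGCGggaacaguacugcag

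All 5 members had the same bases 2 to 8, AGCAGCA, whose reverse complement in a target is UGCUGCU. Counting positions from 1 at the 5′ end of miR-16-5p, the other 4 members all carried G10A. miR-195a-5p was the most similar to miR-16-5p, with 19 of 21 positions identical and the substitutions G10A and U11G. miR-15a-5p matched miR-16-5p at 16 of 22 positions and miR-15b-5p at 14 of 22, whereas miR-15a-5p and miR-15b-5p matched each other at 18 of 22. miR-497a-5p was the most distant, with 11 of 22 positions identical, and it began with C (U1C). Of 1679 mature miRNA names in the RefSeq table, 10 shared these bases 2 to 8. They were the 5 members, miR-322-5p, and miR-195b, miR-6342, miR-6353 and miR-6419, and the last 4 had 0 counts in every library. miR-503-5p shared bases 2 to 7 only, since it differs by A8G within the seed. How many mismatches were allowed when reads were mapped is not given in the sources used here, so exchange of reads between miR-16-5p and miR-195a-5p, which differ at 2 positions, was not tested.

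The precursors lie at 3 loci (GENCODE vM21, GRCm38). Mir15a (chr14:61632027-61632110, minus strand) lies in an intron of the noncoding Dleu2 transcript, and Mir16-1 (chr14:61631880-61631972, minus strand) overlaps a Dleu2 exon, with 54 bases between the precursors. Mir15b (chr3:69009772-69009835, plus strand) and Mir16-2 (chr3:69009902-69009996, plus strand) lie in an intron of Smc4, 66 bases apart. Mir497 (chr11:70234717-70234800, plus strand) and Mir195a (chr11:70235042-70235135, plus strand) are 241 bases apart. Mir195a overlaps no other annotated gene, and Mir497 lies opposite Mir497b, whose product had 0 counts. The RefSeq hairpins of the 2 miR-16 genes, with the 5p sequence in capitals, show why counts of miR-16-5p cannot be assigned to a cluster.
Mir16-1: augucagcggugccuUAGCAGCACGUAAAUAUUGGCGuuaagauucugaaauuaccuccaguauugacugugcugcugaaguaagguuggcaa
Mir16-2: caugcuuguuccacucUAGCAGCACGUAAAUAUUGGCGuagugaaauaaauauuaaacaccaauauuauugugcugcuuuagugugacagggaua

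The capitals are the same 22 bases in both precursors, and among the mature products only the 3p arms tell the genes apart. The deposited catalogue holds miR-16-5p as a single identifier, so its counts were taken as the sum over both genes.

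miR-16-5p was the most abundant member in every library, and the family's mature level followed from it. Its mature counts were 6706 in replicate 1, 9581 in replicate 2 and 7256 in replicate 3. Scaled to counts per 1000000 mature miRNA counts (CPM), these were 7699, 9525 and 7508 CPM, with exact 95% intervals of 7517 to 7885, 9337 to 9717 and 7337 to 7682 CPM. Replicate 2 was the highest, and the intervals of replicates 1 and 3 overlapped. The mean was 8244 ± 1114 CPM (SD, n = 3), rank 22 among the mature entries. The intervals cover counting error only and leave out variation between libraries. They are too narrow even for that error where PCR copies, which cannot be told from separate molecules, were counted.

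miR-15b-5p, the miR-15 of the Smc4 locus, followed with 891, 660 and 719 mature counts in replicates 1 to 3, or 1023, 656 and 744 CPM. It was highest in replicate 1 and lowest in replicate 2, the library in which miR-16-5p was highest. The mean was 808 ± 192 CPM (SD, n = 3), rank 80.

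miR-15a-5p, the miR-15 of the Dleu2 locus, had 187, 281 and 118 mature counts, or 215, 279 and 122 CPM. Its 95% intervals, 185 to 248, 248 to 314 and 101 to 146 CPM, placed replicate 3 below the other libraries. The mean was 205 ± 79.1 CPM (SD, n = 3), rank 147.

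The partners of the Mir497 and Mir195a cluster were the lowest 5p members and lay side by side. miR-195a-5p had 68, 114 and 83 mature counts, or 78.1, 113 and 85.9 CPM, with a mean of 92.4 ± 18.5 CPM (SD, n = 3), rank 185. miR-497a-5p had 60, 103 and 72 mature counts, or 68.9, 102 and 74.5 CPM, with a mean of 81.9 ± 18.0 CPM (SD, n = 3), rank 197. Both were highest in replicate 2 and lowest in replicate 1.

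**Figure D1:**
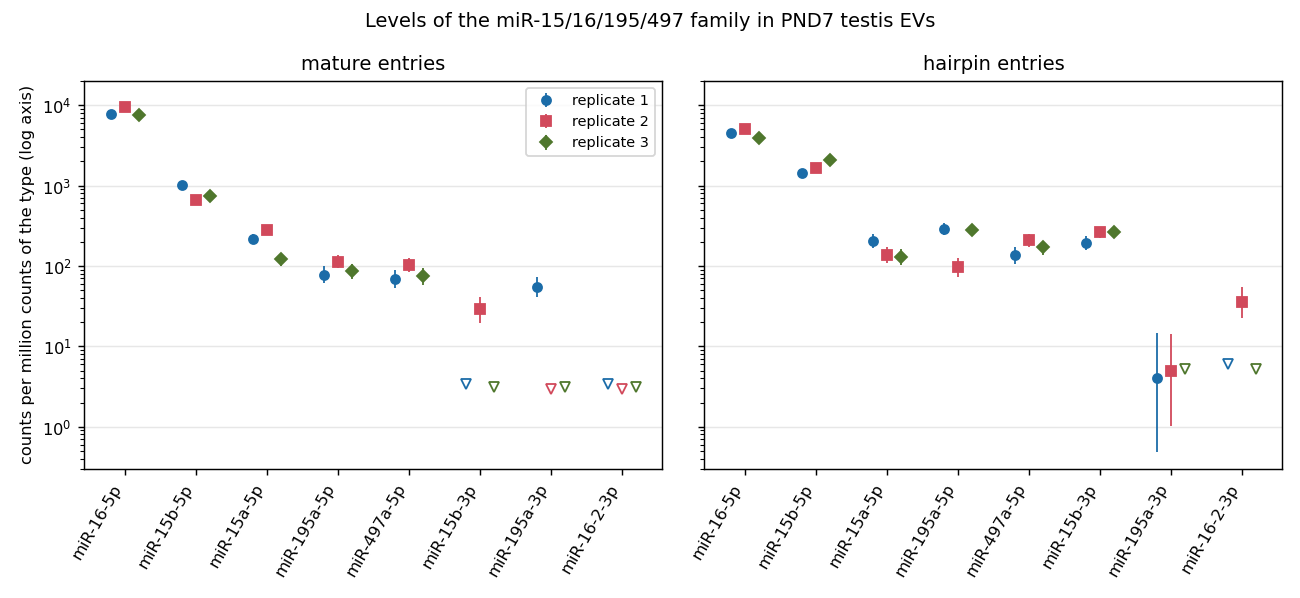
Each point is the level of an identifier in 1 of the 3 libraries, in CPM of the counts of the same type on a log axis, with mature entries on the left, hairpin entries on the right and exact 95% counting intervals as bars; open triangles are the floor of 3 counts for entries at 0. miR-16-5p lies between 7508 and 9525 CPM in the mature panel and miR-15b-5p between 656 and 1023 CPM. miR-195a-5p, between 78.1 and 113 CPM, overlaps miR-497a-5p, between 68.9 and 102 CPM.

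By mean mature level the order was miR-16-5p, miR-15b-5p, miR-15a-5p, miR-195a-5p and miR-497a-5p, and this order held in each of the 3 libraries. miR-16-5p exceeded miR-15b-5p by 7.53, 14.5 and 10.1 times in replicates 1 to 3. miR-15a-5p exceeded miR-195a-5p by 2.75, 2.46 and 1.42 times, and the counting interval of the smallest of these ratios, 1.06 to 1.91, lay just above equality. The difference between miR-195a-5p and miR-497a-5p was not detectable at this depth. Their ratio was 1.13, 1.11 and 1.15 in replicates 1 to 3, and each library's 95% counting interval, the widest of them 0.789 to 1.63, held an equal split. The log2 ratio was 0.18 ± 0.03 (SD, n = 3; p = 0.25, exact sign-flip permutation). The test was two-sided, with the ratio taken within each library. With 3 libraries it cannot give a p below 0.25, so none of the tests reported here could pass a threshold of 0.05.

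In replicates 1 to 3 the mature ranks were 22, 21 and 22 for miR-16-5p, 67, 87 and 81 for miR-15b-5p and 137, 130 and 161 for miR-15a-5p. They were 206, 180 and 186 for miR-195a-5p and 220, 185 and 199 for miR-497a-5p. The entries next to each member were picked by their closeness in mean level. A change of side between libraries is thus likely for them and tells nothing about the members. miR-196a-5p ranked just above miR-16-5p and miR-218-5p just below it, and neither lay on the same side of miR-16-5p in all 3 libraries. This was also so for miR-676-3p and miR-125a-5p around miR-15b-5p, for miR-431-5p and miR-138-5p around miR-15a-5p, and for miR-292a-3p and miR-1195 around miR-195a-5p. miR-700-5p, just above miR-497a-5p, and the predicted miRNA just below it did the same.

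The 5p members together held 0.908%, 1.07% and 0.853% of the mature miRNA counts in replicates 1 to 3, with a mean of 0.943% ± 0.111 (SD, n = 3). Their share of the hairpin counts was 0.662%, 0.725% and 0.658%, with a mean of 0.682% ± 0.0373 (SD, n = 3). miR-16-5p made up 84.8%, 89.2% and 88.0% of the mature counts of the 5p members, with a mean of 87.3% ± 2.30 (SD, n = 3). miR-15b-5p made up 8.71% ± 2.56, miR-15a-5p 2.14% ± 0.625, miR-195a-5p 0.976% ± 0.104 and miR-497a-5p 0.863% ± 0.101 (SD, n = 3 each). Set against the sum of the other 5p members, miR-16-5p gave a log2 ratio of 2.48, 3.05 and 2.87, with a mean of 2.80 ± 0.29 (SD, n = 3; 6.96-fold; p = 0.25, exact sign-flip permutation). The ratio was far above the spread between libraries and above 1 in 3 of 3 libraries.

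The clusters were compared next through the members that each alone encodes. miR-15b-5p from the Smc4 locus was 4.76, 2.35 and 6.09 times as abundant as miR-15a-5p from the Dleu2 locus. The log2 ratio was 2.03 ± 0.71 (SD, n = 3; p = 0.25, exact sign-flip permutation), above 0 in 3 of 3 libraries and larger than its spread. Replicate 2 gave the smallest ratio, since it held the fewest miR-15b-5p and the most miR-15a-5p counts. On hairpin entries the direction was the same and the ratio larger, with a log2 mean of 3.47 ± 0.61 (SD, n = 3). Neither comparison includes miR-16-5p, which both loci encode.

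The miR-15/16 clusters summed, with 7784, 10522 and 8093 mature 5p counts, stood 60.8, 48.5 and 52.2 times above the Mir497 and Mir195a cluster, with 128, 217 and 155 counts. The log2 ratio was 5.74 ± 0.17 (SD, n = 3; 53.6-fold; p = 0.25, exact sign-flip permutation). On hairpin entries the direction was the same and the log2 ratio smaller, at 4.04 ± 0.40 (SD, n = 3). The sum for the miR-15/16 clusters rests mainly on miR-16-5p.

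miR-322-5p, the mouse relative of human miR-424, was the other abundant miRNA with the same seed. It is encoded on chromosome X with miR-503, with 200 bases between Mir322 and Mir503. Its mature counts were 2804, 3740 and 3131, with a mean of 3392 ± 282 CPM (SD, n = 3), rank 31, above every member but miR-16-5p. miR-16-5p exceeded it by 2.39, 2.56 and 2.32 times, with a log2 mean of 1.28 ± 0.07 (SD, n = 3; p = 0.25, exact sign-flip permutation). Of the mature counts on identifiers known to carry the seed AGCAGCA (541 of the 805 had a sequence to read), miR-16-5p held 64.2% ± 1.83 and miR-322-5p 26.5% ± 0.892 (SD, n = 3 each), and the other 4 members shared the rest. On hairpin entries miR-16-5p held 43.9% ± 4.53 and miR-322-5p 33.8% ± 2.48, and their ratio was 1.53, 1.28 and 1.11.

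**Figure D2:**
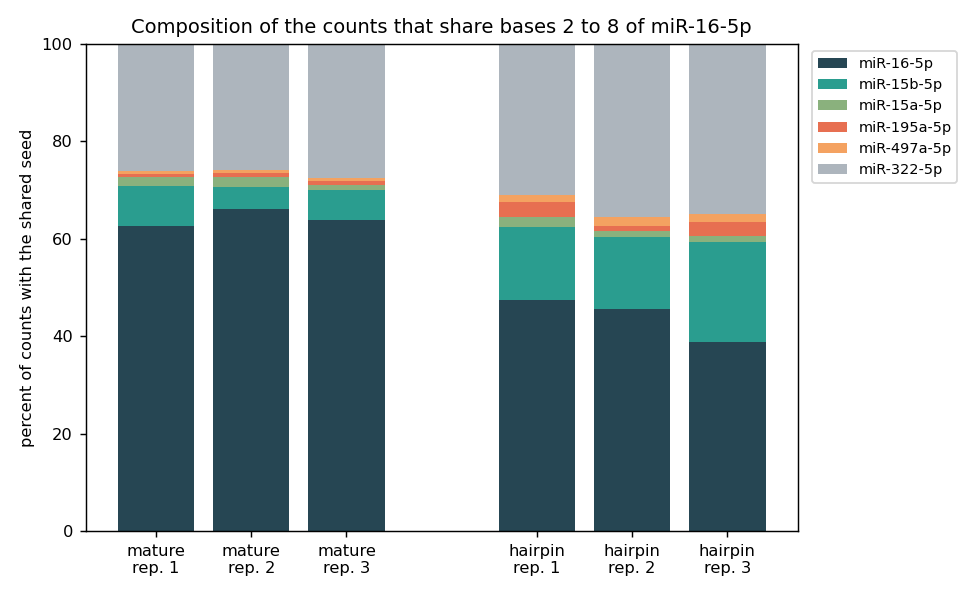
Stacked bars give, for each library, the percent of the mature counts (left 3 bars) and of the hairpin counts (right 3 bars) with the seed AGCAGCA that fell on each miRNA. miR-16-5p takes 62.6% to 66.2% of the mature bars and 38.8% to 47.4% of the hairpin bars, and miR-322-5p and miR-15b-5p take larger parts of the hairpin bars.

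Each miRNA precursor can yield a 5p and a 3p miRNA, and in this family the 5p arm is known as the guide. The 5p arm was above the 3p arm in mature counts in every library for all 5 stems. Over all miRNAs with at least 10 mature counts over both arms in every library, this held for 53.8% of 210 stems. Summed over the family, the 5p arms had 7912, 10739 and 8248 mature counts and the 3p arms 48, 29 and 0. The ratio was 165 in replicate 1, 370 in replicate 2 and at least 2749 in replicate 3, where the 3p count of 0 was set to the floor of 3 counts. The log2 ratio was 9.11 ± 2.09 with that floor (SD, n = 3; p = 0.25, exact sign-flip permutation) and 7.95 without replicate 3.

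The 3p members differed from each other by library and by type, and their sequences, with bases 2 to 8 in capitals, show that none shares the seed of the 5p arms.
miR-15b-3p: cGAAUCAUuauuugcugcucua
miR-195a-3p: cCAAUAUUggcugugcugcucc
miR-16-2-3p: aCCAAUAUuauugugcugcuuu

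miR-15b-3p, the passenger arm of the Smc4 locus miR-15, was almost wholly a hairpin entry. Its mature counts were 0, 29 and 0 in replicates 1 to 3, whereas its hairpin counts were 96, 160 and 152, with a mean of 240 ± 39.1 CPM of hairpin counts (SD, n = 3). It held 11.9%, 13.5% and 11.2% of the hairpin counts of its stem, with a mean of 12.2% ± 1.14 (SD, n = 3). miR-195a-3p went the other way, with 48 mature counts in replicate 1 and 0 in the others, and 2, 3 and 0 hairpin counts. In replicate 1 it was 41.4% of the mature counts of its stem (exact 95% interval, 32.3% to 50.9%), and in replicates 2 and 3 a count of 0 allows up to 2.63% and 3.61% by the floor of 3 counts, or 3.18% and 4.35% by the exact interval. miR-16-2-3p, the only 3p product of a miR-16 gene with counts, had 22 hairpin counts in replicate 2 and 0 mature counts, so the split of miR-16-5p between its genes could not be read from the 3p arms.

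miR-503, the neighbour of miR-322, showed the opposite arm. Its 3p arm had 971, 1455 and 995 mature counts and its 5p arm, which has the related seed, 1, 33 and 62. The 3p share was 97.3% ± 2.92 (SD, n = 3), against 2.07% ± 1.12 for miR-322 from the same cluster.

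Entries of type hairpin gave a different picture of the family's members. miR-16-5p had 2245, 3136 and 2263 hairpin counts, or 4551, 5123 and 3918 CPM of hairpin counts, with a mean of 4531 ± 603 (SD, n = 3), rank 44. miR-15b-5p had 709, 1028 and 1201 hairpin counts, or 1437, 1679 and 2080 CPM of hairpin counts, with a mean of 1732 ± 324 (SD, n = 3), rank 71. miR-16-5p thus exceeded miR-15b-5p by 3.17, 3.05 and 1.88 times on hairpin entries, less than on mature entries in every library.

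The lower members had no fixed order on hairpin entries. miR-15a-5p had 102, 84 and 75 hairpin counts, with a mean of 158 ± 42.4 CPM of hairpin counts (SD, n = 3). miR-195a-5p had 144, 59 and 162, with a mean of 223 ± 110 (SD, n = 3), and miR-497a-5p had 67, 128 and 98, with a mean of 172 ± 36.7 (SD, n = 3). miR-195a-5p was 2.15 and 1.65 times miR-497a-5p in replicates 1 and 3 and 0.461 times in replicate 2, with counting intervals that held no equal split. Replicate 2, where miR-195a-5p was highest on mature entries, was where it was lowest on hairpin entries.

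The share of an identifier's mature and hairpin counts that was of the hairpin type was 25.1%, 24.7% and 23.8% for miR-16-5p, with a mean of 24.5% ± 0.667 (SD, n = 3). It was 44.3%, 60.9% and 62.6% for miR-15b-5p, with a mean of 55.9% ± 10.1 (SD, n = 3). miR-15a-5p, at 35.3%, 23.0% and 38.9%, lay between them in replicates 1 and 3. In replicate 2 it lay below miR-16-5p, whose value was within its interval. miR-195a-5p moved most, at 67.9%, 34.1% and 66.1%, and miR-497a-5p had 52.8%, 55.4% and 57.6%. The range of miR-16-5p over the libraries was 1.31 percentage points and that of miR-195a-5p 33.8, beside a median of 14.4 over all 395 identifiers with at least 10 counts of both types together in every library.

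**Figure D3:**
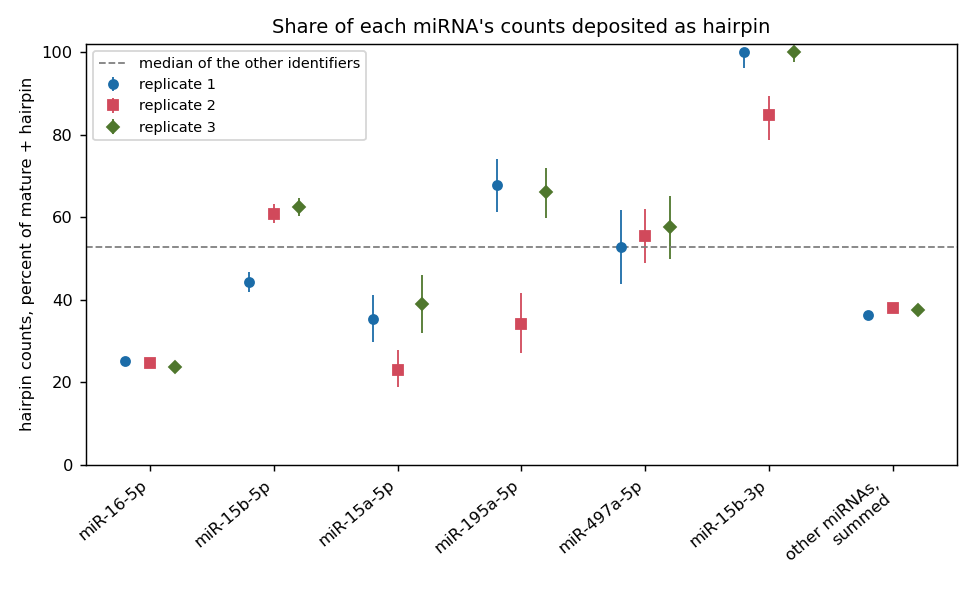
Points give, for each library, the percent of an identifier's mature and hairpin counts that was of the hairpin type, with exact 95% counting intervals as bars; the last column sums all miRNAs outside the family, and the dashed line is their median over identifiers, 52.9%. The points of miR-16-5p lie together between 23.8% and 25.1%, and those of miR-195a-5p spread from 34.1% to 67.9%.

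Mature counts exceeded hairpin counts in every library for 2 of the 6 members that passed this minimum, miR-16-5p and miR-15a-5p, beside 35.4% of the 395 identifiers. miR-195a-3p and miR-16-2-3p did not pass it. For both arms of the family summed, the hairpin share was 29.7%, 30.0% and 32.4%, and for all other miRNAs summed it was 36.2%, 37.9% and 37.4%. The difference was -6.48 ± 1.41 percentage points (SD, n = 3; p = 0.25, exact sign-flip permutation), below 0 in 3 of 3 libraries. Set against the median of the other identifiers it was -21.3 percentage points, but this sets a sum against a value per identifier. Taken one by one, members lay on both sides of that median. The percent of identifiers with a lower share was 19.7 for miR-16-5p and 29.1 for miR-15a-5p. It was 51.1 for miR-497a-5p, 51.9 for miR-15b-5p, 52.2 for miR-195a-5p and 88.1 for miR-15b-3p. The direction of the summed difference rested on miR-16-5p. Without this member the family's share was 47.2%, 55.6% and 63.0%, and the difference turned to 18.1 ± 7.30 percentage points (SD, n = 3), an alternative added after the values were seen.

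The members also differed in how far their mature levels ranged between libraries. The highest library exceeded the lowest by 1.27 times for miR-16-5p, 1.45 for miR-195a-5p, 1.49 for miR-497a-5p, 1.56 for miR-15b-5p and 2.29 for miR-15a-5p. The median over the 272 mature entries that reached 10 counts in every library was 1.73, with quartiles of 1.42 and 2.79. A range of 2-fold or more was found for 40.4% of these entries and for 1 of the 5 members that passed, miR-15a-5p. Its range rested on replicate 3, without which it was 1.30. The 272 entries were not matched to the members by level. Next to miR-16-5p in mean level, miR-196a-5p had a range of 1.54 and miR-218-5p a range of 1.22.

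**Figure D4:**
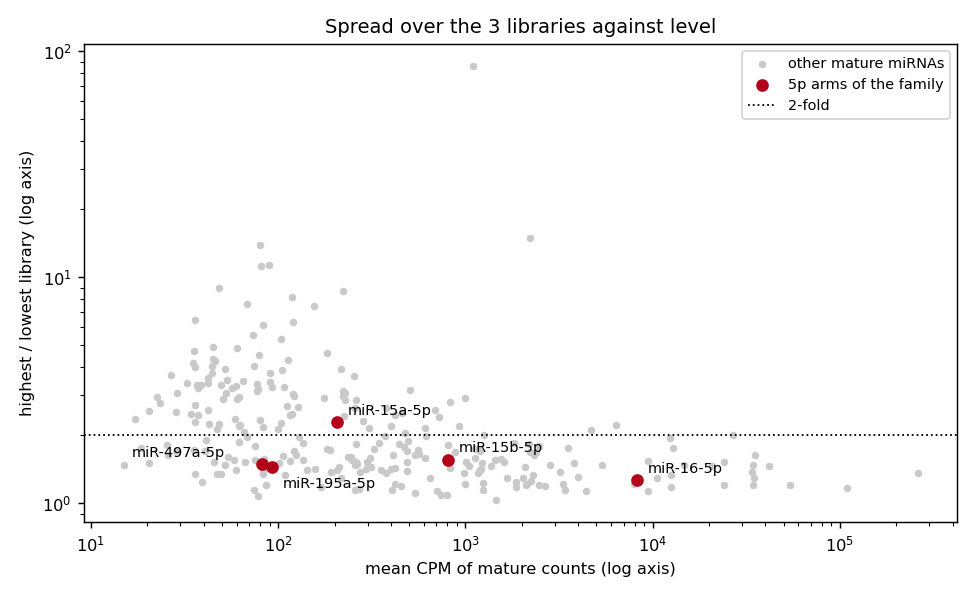
Each point is a mature entry with at least 10 counts in every library (272 entries, 5 of them members in red), with its mean CPM on the x axis and the ratio of its highest to its lowest library on the y axis, both log axes; the dotted line is 2-fold. miR-15a-5p, at 2.29, is the only member above the line. miR-16-5p, at 1.27, lies below the lower quartile of all entries, 1.42, as does miR-218-5p, at 1.22, next to it in mean level.

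The pattern of miR-16-5p over the 3 libraries, given as log2 CPM centred on its mean, was -0.09, 0.22 and -0.13. Among 267 other mature entries whose counts reached 10 in every library, the nearest by root mean square difference were miR-1981-5p with 0.027, miR-411-5p with 0.031, miR-20a-5p with 0.034, miR-10b-5p with 0.035 and miR-23b-3p with 0.042 on the log2 scale. The median over the 267 entries was 0.37. miR-20a-5p had 38, 56 and 40 mature counts and miR-1981-5p 172, 257 and 192. At such counts counting error is larger than these distances, so their places among the nearest are not certain. miR-322-5p stood at 0.06, miR-195a-5p at 0.10 and miR-497a-5p at 0.11, whereas miR-15b-5p and miR-15a-5p, which share clusters with miR-16, both stood at 0.39. These are distances over 3 libraries and describe no more than that.

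miR-16-5p and miR-451a are both known to be abundant in red blood cells, so markers of other cell types were set beside the family's values. The lists were summed over mature entries only. The erythroid list had 4 of 5 miRNAs with mature counts, with a summed level of 361 to 599 CPM, and miR-144-5p was at 0. miR-451a, with 452, 319 and 385 mature counts, was highest in replicate 1 and lowest in replicate 2, where miR-16-5p was highest, and its pattern stood at 0.42 from that of miR-16-5p. Most miR-451a counts were of the hairpin type, at 1172, 989 and 1174, or 74.4% of both types on average. Hairpin counts of miR-486b-5p were 75, 3 and 291, so the mature sum leaves out much of the erythroid list. The leukocyte list had 5 of 5 miRNAs, summed to 350 to 630 CPM. Most of its mature counts, 341, 333 and 582, were of miR-150-5p, whereas miR-142a-3p had 10, 2 and 1. The endothelial list had 2 of 2, summed to 8790 to 17143 CPM. The muscle list had 3 of 3, summed to 572 to 1040 CPM, and the neural list 1 of 2, summed to 1.03 to 23.9 CPM, with miR-124-3p at 0. The liver miRNA miR-122-5p had 1 count in all. The gonadal somatic list had 3 of 3 miRNAs, summed to 21357 to 29846 CPM. Of the meiotic germ cell list miR-34c-5p and miR-34b-5p were at 0 and 1 of 3, miR-449a-5p, was seen, at 442 to 1060 CPM. That list held 5p arms only, and 3p arms of the same miRNAs had counts. miR-34b-3p had a mean of 73.5 CPM of mature counts, and miR-34c-3p a mean of 92.3 counts of both types together. The authors describe spermatogonia as the main germ cells at this age and date the first primary spermatocytes later. The cell source of miR-449a-5p was not tested. The part of other cell types in the levels of the family was not tested.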

How the data were processed

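The 3 libraries hold small RNA of testicular EVs at PND7, all of a single condition. The authors sequenced them (BGISEQ-500), filtered out reads of low quality and mapped the clean reads by Bowtie2 and cmsearch (build mm10 in the submitters' processing notes, versions not given in the sources used here). Reads matching miRBase were given to it before other databases. The authors deposited raw read counts per small RNA entry and per class, and the percent of clean reads per class, which was not used. A deposited column headed as UMI held counts divided by the clean reads (CPM of clean reads) and was not used.

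Mature counts were scaled to CPM of mature counts in each library and hairpin counts to CPM of hairpin counts. Values are mean ± SD over 3 libraries, with exact (Clopper-Pearson) 95% binomial intervals per library and a floor of 3 counts for a count of 0, which was 2.98 to 3.44 CPM of mature counts. For ratios within libraries the signs of the log2 values were flipped in all ways (exact sign-flip permutation test, two-sided). Because depth cancels within a library, they do not depend on the scaling. The scripts were tested on simulated data. Libraries differed well beyond counting error: over 272 mature entries the chi-square per degree of freedom of library pairs was 96.6 to 187. Over the 5p members it was 12.8 to 39.7. The libraries were thus not repeats that differ by counting alone. Whether they came from separate preparations cannot be read from this value, which also takes in differences from library making. The labels call the libraries biological replicates.

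The members, lists and tests were chosen with earlier results of these data known. Named besides the members were miRNAs with the same seed and miR-503, neighbours in rank, the 5 entries nearest to miR-16-5p in pattern, marker lists and Rfam precursor families of the members. Alternatives changed the denominator, type, scaling, minimum of 10 counts, count added and libraries. Sequences came from RefSeq (GRCm38.p6), which held all 8 members and 541 of the 805 identifiers, and gene positions from GENCODE vM21. The hairpin of Mir15a was not printed here. Scripts ran under Python 3.11.15 with SciPy 1.17.1, numpy 2.4.6, pandas 2.3.3 and matplotlib 3.10.9.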

Additional observations from a re-analysis of the deposited data

Results flagged for a closer look

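Reads counted on Rfam precursor families lay outside the mature and hairpin entries compared above, and 2 such families that belong to these miRNAs had counts. The mir-16 precursor family had 706, 954 and 841 reads in replicates 1 to 3, each above the 3 counts that a count of 0 allows. The mir-15 precursor family had 0, 1 and 31 reads, so its signal was found in replicate 3 alone. In that library mature miR-15a-5p was lowest, whereas the hairpin counts of miR-15b-5p, 709, 1028 and 1201 in replicates 1 to 3, were highest. There were no control samples to set these values against.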

How the results depend on the processing

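Of 58 values computed for the comparisons under alternatives, 52 kept their direction and, where there was no test, moved by less than the spread between libraries, 5 moved further and 1 reversed. The family's share of mature counts, 0.943%, became 1.28% with miR-127-3p left out of the denominator, 0.0339% of clean reads, and 1.28% with miR-322-5p added. Its share of hairpin counts, 0.682%, became 0.860% without miR-127-3p in the denominator and 0.0145% of clean reads. The difference in hairpin share turned from -6.48 to 18.1 percentage points without miR-16-5p. It was -21.3 against the median of the other identifiers, which sets the family's sum against a value per identifier. Leaving out each library in turn changed none of these calls: the shares were 0.881% to 0.988% of mature and 0.660% to 0.693% of hairpin counts, and the difference in hairpin share was -7.19 to -5.78 percentage points. The log2 ratios were 2.67 to 2.96 for miR-16-5p against the other 5p members, 1.74 to 2.43 for miR-15b-5p against miR-15a-5p, 0.16 to 0.19 for miR-195a-5p against miR-497a-5p, 5.65 to 5.82 for the clusters and 7.95 to 9.98 for the arms. On hairpin counts, the log2 ratio of miR-16-5p to the other 5p members fell to 0.99 and that of the arms to 4.76, both with their direction kept, whereas that of miR-195a-5p to miR-497a-5p was 0.24 ± 1.19, with replicate 2 below 0. Without the minimum of 10 counts, 36.4% of all stems had the 5p arm higher in every library, 18.1% of identifiers had more mature than hairpin counts, and 72.5% of mature entries differed 2-fold or more between libraries. Of 73 other values, 56 moved by less than the spread between libraries or within 1.5 times, and 17 moved further. Ratios and differences were paired within each library, and no groups could be compared because there was a single group. With 3 libraries no test could pass 0.05, and under about 100 counts a member's interval spans a large part of its value.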
